A study of Mus musculus with 13 samples.

Results

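The genes of the platelet-derived growth factor (PDGF) ligands Pdgfa, Pdgfb, Pdgfc and Pdgfd and of the receptors Pdgfra and Pdgfrb were followed in bulk RNA-Seq of mouse embryonic fibroblasts (MEFs). They were chosen by name, 6 of the 57010 genes in the files, and all 6 passed the filter on low counts. Wild type (WT) MEFs were prepared from embryos after the viscera, lung and heart had been taken out. The control group was untreated. The senescent group had been exposed to etoposide, a topoisomerase poison that breaks DNA, at 2 μM for 24 h and was left for 5 days in normal medium. The other groups were senescent MEFs that also received Fucoidan-FV, a sulfated seaweed polysaccharide, at 100 μg/mL (FV 100) or 300 μg/mL (FV 300) for 12 h. Every group held mice 4, 5 and 6 by label. Control mouse 5 had 2 libraries, 5(1) and 5(2), which were summed, so that n = 3 mice per group throughout. Whether a number marks the same embryo or culture in every group is not stated. No group of non-senescent MEFs with Fucoidan-FV was among the samples used here, so the comparisons concern its addition to senescent cells.

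PDGFs are secreted, disulfide-linked dimers that bring together receptor tyrosine kinases on mesenchymal cells such as fibroblasts and pericytes, where they drive growth and migration. PDGF-A and PDGF-C act mainly through PDGFRα, PDGF-D mainly through PDGFRβ, and PDGF-B through both. PDGF-A and PDGF-B are trimmed inside the cell by furin-like proprotein convertases. PDGF-C and PDGF-D are secreted in a latent form with an N-terminal CUB domain, which is cut off outside the cell by serine proteases. PDGF-AA is a known secreted product of senescent fibroblasts.

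In the reference genome GRCm39 with the GENCODE vM39 annotation, Pdgfd lies at chr9:6168240-6379265 on the plus strand, Pdgfc at chr3:80943668-81121473 on the plus strand, Pdgfa at chr5:138961758-138983435 on the minus strand, Pdgfb at chr15:79880009-79899181 on the minus strand and Pdgfra at chr5:75311994-75358876 on the plus strand. Since Pdgfd was the member whose level changed most between the groups, the 250 bases before its most upstream annotated start (chr9:6167990-6168239, GRCm39, plus strand) are given, with the match to a searched motif in capitals.
Pdgfd upstream: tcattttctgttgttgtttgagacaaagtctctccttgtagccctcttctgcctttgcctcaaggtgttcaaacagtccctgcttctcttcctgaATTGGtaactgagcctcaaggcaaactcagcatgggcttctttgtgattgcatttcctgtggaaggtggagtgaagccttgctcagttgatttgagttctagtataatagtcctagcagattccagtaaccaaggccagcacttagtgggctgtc
No annotated exon overlapped this window. It contained 0 CpG dinucleotides, against a median of 6 in the windows of 21770 protein-coding genes, of which 8.02% had as few. On both strands, 8 motifs were searched: the GC box GGGCGG (found in 29.9% of the 21770 windows), the CCAAT box CCAAT (36.1%), the TATA box TATAAA (12.5%), the AP-1 element TGANTCA (6.46%), the Egr element GCGGGGGCG (1.78%), the CRE TGACGTCA (1.31%), the E2F element TTTNGCGC (1.24%) and the CArG box (1.41%). The Pdgfd window held a CCAAT box on the opposite strand, whose first base was base 96 of the window, and no other match. The Pdgfrb window also held a CCAAT box, with its last base 42 bases before the start, and the Pdgfb window held 2 overlapping TATA box matches. The windows of Pdgfa and Pdgfc, unlike that of Pdgfd, overlapped annotated exons. The windows of Pdgfa, Pdgfc and Pdgfra held no match.

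Total expected counts ran from 22782505 to 31278741 per library. The check genes of senescence, the cell cycle inhibitors Cdkn1a and Cdkn2a, rose from control to senescent MEFs by 1.82 (SE 0.18, adjusted p = 6.8e-05) and 2.46 (SE 0.25, adjusted p = 7.24e-05) on the log2 scale. Of 8 fibroblast and mesenchymal markers, 6 were at 1 TPM or more in every control mouse and 7 in every senescent mouse, led by Vim, whereas 0 of 5 endothelial markers reached 1 TPM in every mouse of either group. By exonic length, the senescent mouse 6 library stood apart from the other libraries. Genes with under 1500 exonic bases were shifted by 0.84 on the log2 scale from their mean over libraries. Those with over 5000 were shifted by −0.40. Values without this library are given beside several of the results. Other libraries moved more for the 692 genes with over 95% of their sequence in 1 transcript only. Their shift ran from −1.42 in control mouse 6 to 1.15 in FV 100 mouse 5. It was −1.12 in library 5(1) and 0.84 in 5(2) of control mouse 5. For genes under 60%, which include the members, it ran from −0.15 to 0.15. Both libraries of control mouse 5 show how far a value moves between libraries of 1 mouse: as CPM without TMM factors, Pdgfd had 22.3 in 5(1) and 37.3 in 5(2), whereas Pdgfra had 11.8 and 11.3.

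Levels between samples are CPM (counts scaled to library size), with TMM factors, as mean ± SD over mice. The factors were 1.15, 1.16 and 0.99 in FV 100 mice 4, 5 and 6 and 0.96, 1.09 and 1.03 with FV 300. In senescent mice they were 1.00, 0.91 and 0.96, and in control mice 0.97, 0.93 and 0.90. A differentially expressed gene (DEG) is one that edgeR's quasi-likelihood test placed under an adjusted p of 0.05 with a change of more than 1 log2 unit in either direction. The study describes its replicates as independent, p-values measure the spread between these samples, and in bulk RNA fewer cells of a type and less RNA per cell cannot be told apart. From control to senescent MEFs, 1 of the 6 genes, Pdgfd, was a DEG, against 8.42% of the 15034 genes tested. From senescent MEFs to FV 100, edgeR called 0 of 6 (3 at an unadjusted p under 0.05 and 0 with DESeq2), against 2.69% of all genes. From senescent MEFs to FV 300, edgeR called 0 of 6 (4 at an unadjusted p under 0.05 and 0 with DESeq2), against 1.64%. Relative to control MEFs, 1 of 6 was a DEG with FV 100, against 19.7% of all genes, and 2 of 6 with FV 300, against 18%. The CPM values of both groups did not overlap for 1 member in senescent against control MEFs (27.1% of all genes), for 3 in FV 100 against senescent MEFs (26.2%) and for 4 in FV 300 against senescent MEFs (19.6%). The median log2 fold change of the members was 0.38, 0.05 and 0.28 in these comparisons, and that of all genes was 0.07, −0.02 and 0.00. These comparisons share the control or the senescent samples, so they are not independent of each other.

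**Figure D1:**
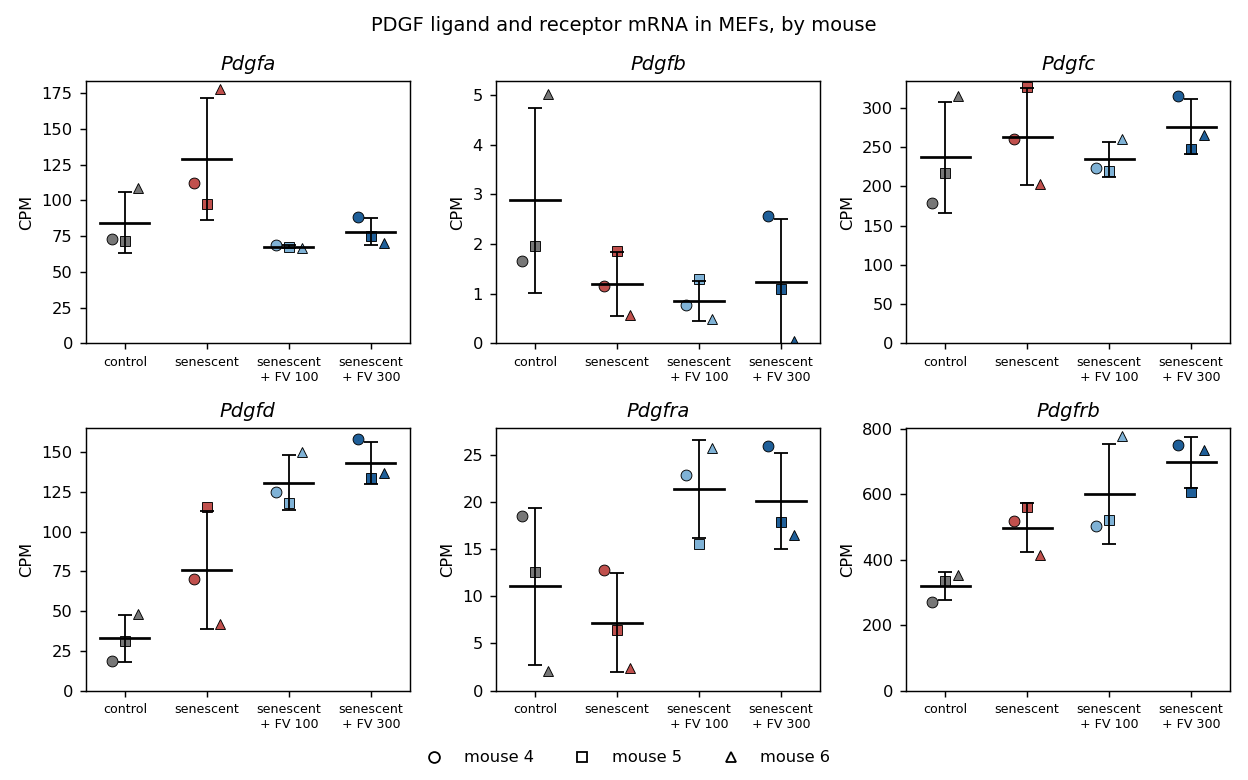
The y axes give CPM, scaled with TMM factors, of each PDGF gene, and the x axes the 4 groups. Each point is a mouse (circle 4, square 5, triangle 6), long bars are means and error bars SD (n = 3), cut at 0 for Pdgfb. The 6 Fucoidan-FV samples of Pdgfd, at 118 to 158 CPM, sit above every control sample and every senescent sample.

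Pdgfd, the latent CUB-domain ligand of PDGFRβ, rose in senescent MEFs and was highest with Fucoidan-FV. Its level was 18.7, 31.3 and 48.4 CPM in control mice 4, 5 and 6 and 70.2, 115 and 41.7 CPM in senescent mice 4, 5 and 6. The senescent samples of mice 4 and 5 lay above all controls, but that of mouse 6 lay inside the control range. The means were 32.8 ± 14.9 and 75.7 ± 37.1 CPM. On the log2 scale this was a change of 1.21 (SE 0.36, adjusted p = 0.0422), with 2 of 3 mice higher. The call was lost with the mouse number as a block (adjusted p = 0.0723), with library 5(2) alone for control mouse 5 (adjusted p = 0.0741), in a fit of these groups alone (adjusted p = 0.186) and without control mouse 4 or 5 or senescent mouse 4 or 5 (adjusted p from 0.0872 to 0.170). The value was lowest without senescent mouse 5, at 0.78 (adjusted p = 0.170). Without senescent mouse 6 it was 1.49 (adjusted p = 0.00754), and without control mouse 6 it was 1.60 (adjusted p = 0.0149).

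With FV 100, Pdgfd was at 125, 118 and 150 CPM in mice 4, 5 and 6, and with FV 300 at 158, 134 and 137 CPM. Each of these 6 samples lay above the highest senescent sample. Relative to senescent MEFs the log2 fold changes were 0.79 (SE 0.35, adjusted p = 0.232) with FV 100 and 0.92 (SE 0.35, adjusted p = 0.221) with FV 300, higher in 3 of 3 mice at both doses but past neither limit of the call. Without senescent mouse 6 they were 0.65 and 0.68, and without senescent mouse 5 they were 1.35 (adjusted p = 0.0765) and 1.39 (adjusted p = 0.0792). Relative to control MEFs the means of 131 ± 17.1 and 143 ± 13.2 CPM were 2.00 (SE 0.36, adjusted p = 0.00138) and 2.13 (SE 0.36, adjusted p = 0.000994) higher on the log2 scale, and Pdgfd was a DEG in all 19 alternative analyses of either dose. An alternative among the 19 used identical counts, so its result could not differ from the main fit. In order of level, control was lowest, then senescent, FV 100 and FV 300. Control and senescent MEFs overlapped, as did both doses.

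Pdgfa, whose product acts through PDGFRα, was highest in the senescent group. It was at 73.1, 71.3 and 109 CPM in control mice 4, 5 and 6 and at 112, 97.7 and 178 CPM in senescent mice. Every senescent sample was higher than the control of the same number, but the groups overlapped in CPM. In TPM they did not, at 66.0 to 104 in control and 115 to 137 in senescent samples. Between the means of 84.4 ± 21.1 and 129 ± 42.7 CPM lay 0.61 log2 units (SE 0.24, adjusted p = 0.120), or 0.32 without senescent mouse 6. With FV 100 it was at 68.6, 67.5 and 66.7 CPM, and with FV 300 at 88.5, 74.9 and 70.5 CPM. All 6 of these samples lay below the lowest senescent sample. With FV 100 the log2 fold change relative to senescent MEFs was −0.93 (SE 0.24, adjusted p = 0.0471), which passed the limit on p but not that on the fold change. Pdgfa was the 1 member past that limit on p alone, against 4.02% of all genes. Its adjusted p was 0.0626 with the mouse number as a block and ran from 0.0214 to 0.280 over 19 alternatives. The highest was that without senescent mouse 6, where the log2 fold change was −0.48. With FV 300 the log2 fold change was −0.73 (SE 0.24, adjusted p = 0.146), and −0.38 without senescent mouse 6.

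Pdgfc, the other CUB-domain ligand, which acts through PDGFRα, held the largest share of ligand TPM in every control sample and was not a DEG in any of the comparisons. It was at 178, 217 and 316 CPM in control mice 4, 5 and 6, at 260, 326 and 204 CPM in senescent mice, at 224, 220 and 260 CPM with FV 100 and at 315, 248 and 265 CPM with FV 300. All 4 groups overlapped. On the log2 scale its change was 0.15 (SE 0.23, adjusted p = 0.754) from control to senescent MEFs, −0.17 (SE 0.23, adjusted p = 0.742) with FV 100 and 0.07 (SE 0.23, adjusted p = 0.933) with FV 300 relative to senescent MEFs. Its 95% intervals in these comparisons ran from −0.34 to 0.64, from −0.66 to 0.32 and from −0.42 to 0.56.

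Pdgfb, the ligand best known from platelets and endothelial cells, was barely detected. It had between 1 and 107 expected counts per mouse. It was at 1.66, 1.96 and 5.03 CPM in control mice 4, 5 and 6, and at 1.15, 1.85 and 0.58 CPM in senescent mice. Control mouse 6 stood highest and the groups overlapped. It was lower in 3 of 3 mice, with a log2 difference of −1.27 (SE 0.96, adjusted p = 0.466). With FV 100 it was at 0.78, 1.29 and 0.48 CPM and with FV 300 at 2.56, 1.10 and 0.04 CPM, the last from 1 count. As CPM without TMM factors it had 0.69 in library 5(1) and 3.23 in library 5(2) of control mouse 5, a ratio of 4.69 between libraries of 1 mouse. The log2 fold changes with FV 100 and FV 300 relative to senescent MEFs were −0.48 (SE 0.96, adjusted p = 0.835) and 0.05 (SE 0.96, adjusted p = 0.991).

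The composition of the ligand mRNA was compared per length, as each gene's share of the summed TPM of the 4 ligands in a sample. In control MEFs Pdgfc held 49.2% ± 2.40, Pdgfa 40.7% ± 4.94, Pdgfd 8.72% ± 2.51 and Pdgfb 1.32% ± 0.84 (SD, n = 3). The Pdgfd share was 14.1% ± 6.12 in senescent MEFs, 29.3% ± 1.27 with FV 100 and 27.6% ± 1.15 with FV 300. Its lowest Fucoidan-FV sample, at 26.5%, lay above its highest senescent sample, at 19.8%, and the senescent mean was 17.3% without mouse 6. The Pdgfa share was 44.8% ± 12.3 in senescent MEFs, led by 58.6% in mouse 6 and with a mean of 37.9% without it, and 27.5% ± 1.63 and 28.2% ± 0.51 with FV 100 and FV 300. Pdgfc held 40.7% to 43.7% on average in the senescent and Fucoidan-FV groups. Shares sum to 100 in a sample, so a higher share of 1 gene lowers the others.

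**Figure D2:**
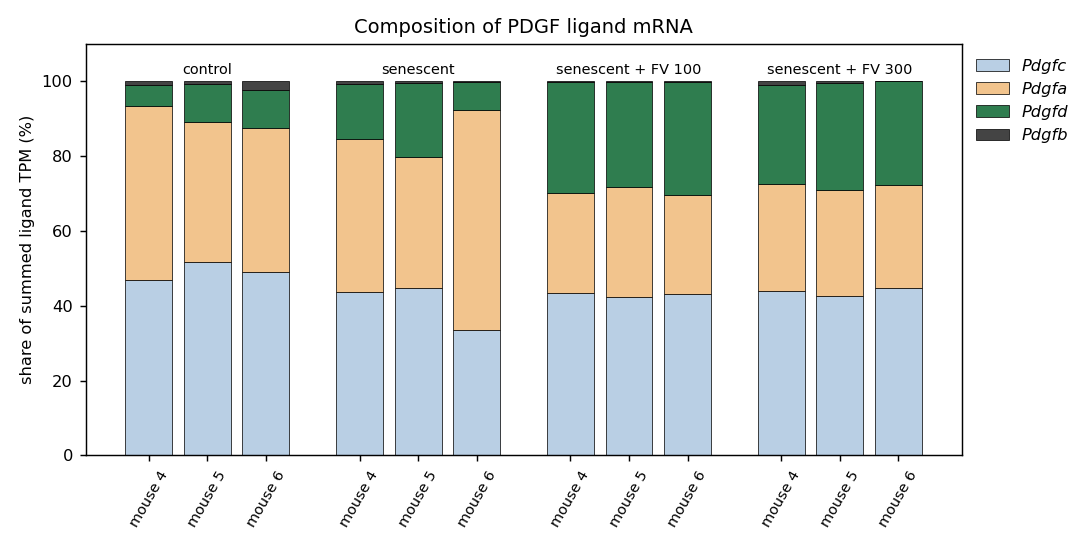
Stacked bars give each ligand gene's share (%) of the summed TPM of Pdgfa, Pdgfb, Pdgfc and Pdgfd, with 1 bar per mouse in 4 groups. The Pdgfd segment was between 26.5% and 30.4% in the 6 Fucoidan-FV samples and at most 19.8% in the others.

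Pdgfrb, the receptor for PDGF-B and PDGF-D and a common mesenchymal and pericyte marker, was the more abundant receptor gene per length in every sample. It was at 271, 334 and 353 CPM in control mice 4, 5 and 6 and at 519, 560 and 415 CPM in senescent mice. Every senescent sample lay above every control. The means were 319 ± 42.6 and 498 ± 74.6 CPM. The change on the log2 scale was 0.64 (SE 0.21, adjusted p = 0.0603), and 0.76 (adjusted p = 0.00539) without senescent mouse 6, under the fold limit in either case. With FV 100 it was at 503, 521 and 777 CPM, which overlapped the senescent group, and with FV 300 at 751, 607 and 735 CPM, all above it. The overlap at FV 100 depended on the scale. In TPM, which has no TMM factors, Pdgfrb was at 178, 188 and 225 with FV 100. In senescent mice 4, 5 and 6 it was at 144, 140 and 88.4 TPM, without overlap. The log2 fold changes given here rest on CPM. Relative to senescent MEFs the log2 fold changes were 0.27 (SE 0.20, adjusted p = 0.512) and 0.49 (SE 0.20, adjusted p = 0.268). The first of these was 0.04 (adjusted p = 0.938) without FV 100 mouse 6, the highest Pdgfrb sample at that dose, and 0.46 and 0.48 (adjusted p = 0.211 and 0.205) without senescent mouse 4 or 5. Without senescent mouse 6 they were 0.28 (adjusted p = 0.403) and 0.41 (adjusted p = 0.25).

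Relative to control MEFs, Pdgfrb was 0.91 higher on the log2 scale with FV 100 (mean 600.3 ± 153 CPM, SE 0.21, adjusted p = 0.00549), under the fold limit, and rose by 1.13 with FV 300 (mean 698 ± 78.7 CPM, SE 0.21, adjusted p = 0.00157), higher in 3 of 3 mice. With FV 100, 2 of 6 members, Pdgfd and Pdgfrb, passed the limit on p alone, against 26.6% of all genes. Without control mouse 5 or 6, or without FV 100 mouse 4 or 5, Pdgfrb was a DEG with FV 100 too (log2 fold change 1.00 to 1.14). With gene-wise offsets for exonic length, GC content and the share of sequence found in 1 transcript only, the value with FV 300 was 0.75 (adjusted p = 0.0087), under the fold limit. The order of levels was control, senescent, FV 100 and FV 300. In CPM, the senescent group did not overlap the controls, and each of the upper groups overlapped its neighbour.

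Pdgfra, the receptor for PDGF-A and PDGF-C and a marker of embryonic mesenchyme and fibroblasts, was low and the most uneven of the receptors. It was at 18.5, 12.5 and 2.07 CPM in control mice 4, 5 and 6 and at 12.8, 6.42 and 2.38 CPM in senescent mice. In both groups mouse 6 was lowest, with 44 and 70 counts, and the groups overlapped. The difference was −0.62 on the log2 scale (SE 0.64, adjusted p = 0.621). With FV 100 Pdgfra was at 22.8, 15.6 and 25.7 CPM and with FV 300 at 25.9, 17.9 and 16.5 CPM, and each of these samples lay above the highest senescent sample. Relative to senescent MEFs the log2 fold changes were 1.57 (SE 0.65, adjusted p = 0.201) and 1.48 (SE 0.65, adjusted p = 0.298), higher in 3 of 3 mice at both doses. They were 1.28 and 1.09 without senescent mouse 6, and 2.45 and 2.26 without senescent mouse 4 (adjusted p = 0.0932 and 0.132). Both became calls in DESeq2 with the mouse number as a block (adjusted p = 0.00684 and 0.0379) and without the count filter (adjusted p = 0.00651 and 0.0216). Relative to control MEFs the log2 fold changes were 0.95 (adjusted p = 0.301) and 0.86 (adjusted p = 0.369).

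The receptors were also compared as a ratio within each sample, which does not depend on library size. There were 14.6, 26.7 and 169 Pdgfrb counts for 1 Pdgfra count in control mice 4, 5 and 6, and 40.7, 86.9 and 173 in senescent mice. With Fucoidan-FV there were 22.0, 33.5 and 30.2 at FV 100 and 29.0, 34.0 and 44.6 at FV 300. Mouse 6 thus stood highest in the control, senescent and FV 300 groups and between the other mice at FV 100. The mean log2 ratio of Pdgfra to Pdgfrb differed from that of senescent MEFs by 1.59 with FV 100 (exact two-sided permutation test, p = 0.1, the smallest p that 3 against 3 mice allow, adjusted p = 0.6 over 6 comparisons) and by 1.27 with FV 300 (exact p = 0.2, adjusted p = 0.6). From control to senescent MEFs it differed by −1.07 (exact p = 0.4, adjusted p = 0.6). Without senescent mouse 6 these differences were 1.08, 0.75 and −0.56. From control to senescent MEFs the difference was −0.34 without control mouse 4 and −2.11 without control mouse 6. Per length, Pdgfrb held between 92.6% and 99.5% of the receptor TPM in every sample.

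**Figure D3:**
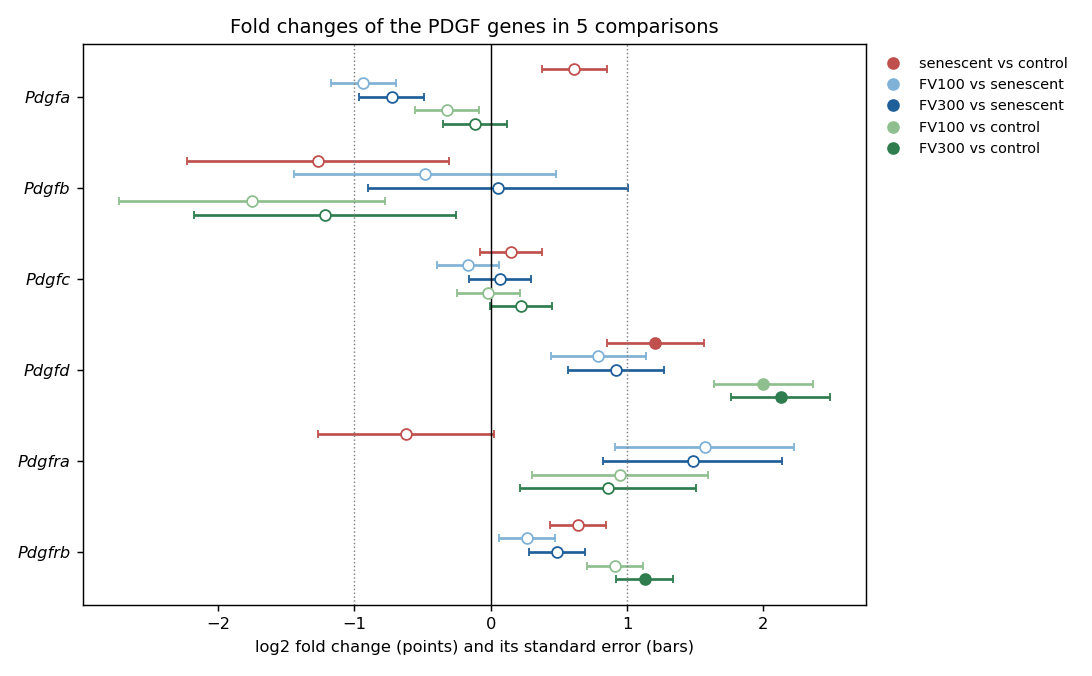
The x axis gives log2 fold changes of the 6 PDGF genes (rows) in 5 comparisons (colours), with bars of 1 standard error and dotted lines at −1 and 1. Filled points are DEGs, which were Pdgfd in 3 comparisons and Pdgfrb in FV 300 against control.

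Between the doses, edgeR called 0 of 6 members (0 at an unadjusted p under 0.05 and 0 with DESeq2), against 0.00665% of all genes. The log2 fold changes of FV 300 against FV 100 were 0.13 for Pdgfd (95% interval −0.62 to 0.88), 0.22 for Pdgfrb (−0.22 to 0.66), 0.21 for Pdgfa (−0.30 to 0.72), 0.24 for Pdgfc (−0.25 to 0.73), −0.09 for Pdgfra (−1.46 to 1.28) and 0.54 for Pdgfb (−1.53 to 2.61). All of these intervals include 0, and those of Pdgfra and Pdgfb also include values past the fold limit of the call in both directions.

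Markers of pericytes and mural cells, which carry PDGFRβ in tissue, were read beside the receptors. Of 6 such markers, 2 were at 1 TPM or more in every control mouse, 3 in every senescent mouse and 5 in every mouse at FV 100 and at FV 300. Their summed TPM was 216 to 297 in control, 213 to 286 in senescent, 264 to 293 in FV 100 and 285 to 307 in FV 300 samples. Cspg4 led the list in control MEFs and Mcam in the other groups. With FV 100 relative to senescent MEFs, 1 of the 6 markers was a DEG, 4 had higher and 2 lower values. The lower ones, which were the most abundant, were Cspg4 (−0.74 on the log2 scale, adjusted p = 0.0546) and Mcam (−0.56, adjusted p = 0.125) at FV 100, and −0.42 (adjusted p = 0.337) and −0.37 (adjusted p = 0.391) at FV 300. These fold changes rest on CPM with TMM factors, unlike the TPM sums. Mean Cspg4 TPM was 109 in senescent, 82.6 in FV 100 and 94.5 in FV 300 samples. Mean Mcam TPM was 134, 127 and 142, so that Mcam was higher at FV 300 in TPM. The DEG was the pericyte gene Rgs5 (3.25, adjusted p = 0.0283, and 2.68 with adjusted p = 0.0794 at FV 300). Rgs5, named here after its values were seen, was at 0.07 to 1.13 TPM in control, 0.80 to 3.18 in senescent, 10.5 to 31.3 in FV 100 and 4.25 to 25.0 in FV 300 samples. Of the 8 fibroblast and mesenchymal markers, 3 rose with FV 100 relative to senescent MEFs, the proteoglycan genes Dcn (2.33, adjusted p = 0.0477) and Lum (3.29, adjusted p = 0.0399) and the collagen gene Col3a1 (1.38, adjusted p = 0.0164). Vim, the most abundant, was lower by less than the fold limit (−0.87, adjusted p = 0.0245). With FV 300, 1 of the 8, Col3a1, rose (1.17, adjusted p = 0.0489). Over all genes tested, 2.69% were DEGs with FV 100 and 1.64% with FV 300 relative to senescent MEFs. From control to senescent MEFs, 2 of the 8 already rose, Dcn (3.95, adjusted p = 0.00215) and Lum (3.22, adjusted p = 0.0375). Lum was at no more than 0.06 TPM in control mice. Col1a2 was lower by less than the fold limit (−0.65, adjusted p = 0.0338). Of the 6 pericyte and mural markers, 1 rose there, Notch3 (2.68, adjusted p = 0.0189). These stood against 8.42% of all genes. Among 4 neural and glial markers, 3 of which were tested, Nes, the gene of the intermediate filament nestin, fell with FV 100 (−2.50, adjusted p = 0.000442) and FV 300 (−2.42, adjusted p = 0.000952), and was, like the markers above, named after its values were seen. It was at 122 to 232 TPM in control, 155 to 197 in senescent, 43.0 to 45.8 in FV 100 and 38.2 to 49.2 in FV 300 samples. The other 2 tested markers, Tubb3 and Sox10, had higher values than senescent MEFs at both doses and were not called. Tubb3 differed by 0.84 and 0.58 (adjusted p = 0.186 and 0.458) and Sox10 by 0.06 and 0.57 (adjusted p = 0.982 and 0.85). Of 4 skeletal muscle markers 1 was tested, the desmin gene Des, at 22.3 to 65.4 TPM in control, 85.6 to 187 in senescent, 82.6 to 101 in FV 100 and 51.0 to 91.8 in FV 300 samples. Its log2 fold change was 1.42 (adjusted p = 0.0873) from control to senescent MEFs, and −0.74 (adjusted p = 0.445) and −1.20 (adjusted p = 0.263) with FV 100 and FV 300 relative to senescent MEFs. The 5 endothelial markers summed to at most 0.92 TPM in control and senescent samples, 2.51 to 4.28 in FV 100 and 1.41 to 3.44 in FV 300 samples, with Tek highest in both Fucoidan-FV groups. Tek alone held 2.35 of a mean sum of 3.15 TPM at FV 100 and 1.84 of 2.20 at FV 300. It rose with FV 100 relative to senescent MEFs (3.58, adjusted p = 0.0446, and 3.32 with adjusted p = 0.0818 at FV 300). Kdr was lower (−0.53 and −1.30, adjusted p = 0.882 and 0.747). The part of these differences in the levels of Pdgfrb, Pdgfra and Pdgfd was not tested.

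The surroundings of the members were described with 65 further genes of the pathway in 6 lists, all of which were tested. Of these 65 genes, 0 rose and 2 fell from control to senescent MEFs (3.08%), 1 rose and 2 fell with FV 100 relative to senescent MEFs (4.62%), and 1 rose and 2 fell with FV 300 (4.62%). Their median log2 fold changes were −0.12, −0.02 and 0.03. The shares of called genes stood beside 8.42%, 2.69% and 1.64% of all genes.

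Among 7 proteases that process the ligands, edgeR called 0 from control to senescent MEFs (2 at an unadjusted p under 0.05 and 1 with DESeq2) and 0 with FV 100 (4 and 0). The gene DESeq2 called was Pcsk5, a proprotein convertase named after its values were seen, at a log2 fold change of 1.78 (adjusted p = 0.0084). In edgeR its adjusted p was 0.0504, and with the mouse number as a block it was called (1.69, adjusted p = 0.0176). Furin, the convertase gene that gives the group its name, passed the limit on p alone in edgeR and was named after its values were seen. It was at 360, 389.8 and 497 CPM in control mice 4, 5 and 6 and at 265, 259.6 and 238 CPM in senescent mice, without overlap, which was −0.71 on the log2 scale (SE 0.17, adjusted p = 0.0175). Pcsk6, a furin-like proprotein convertase, rose with FV 300 relative to senescent MEFs. It was at 44.1, 57.3 and 25.5 CPM in senescent mice 4, 5 and 6 and at 112, 99.6 and 76.6 CPM with FV 300, which did not overlap. It was 1.18 higher on the log2 scale (SE 0.27, adjusted p = 0.0397), and was called in 12 of 19 alternatives. The call was lost without senescent mouse 4 or 6 or any FV 300 mouse (0.97 to 1.32, adjusted p 0.0658 to 0.130), with library 5(1) alone for control mouse 5 (adjusted p = 0.0513) and in a fit of these groups alone (adjusted p = 0.125). With FV 100 the value was 0.79 (adjusted p = 0.115). The median log2 fold change of this list was 0.40 in senescent against control MEFs, 0.79 with FV 100 and 0.36 with FV 300.

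Of 6 co-receptors and ligand-binding proteins, Pdgfrl, which encodes a secreted protein resembling the outer part of the receptors, was called. It was at 2.14, 1.34 and 4.11 CPM in senescent mice 4, 5 and 6 and at 11.1, 11.3 and 12.6 CPM with FV 100. The groups did not overlap. Its change on the log2 scale was 2.20 (SE 0.56, adjusted p = 0.0457). The adjusted p was 0.0742 with the mouse number as a block, and 0.0903 to 0.134 without senescent mouse 4 or 5 or any FV 100 mouse. With FV 300 the change was 2.07 (adjusted p = 0.0822). The other 5 genes of the list, Lrp1, Nrp1, Cspg4, Sparc and Thbs1, were not called in the senescent against control comparison or in either dose against senescent MEFs.

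The 28 genes of receptor-proximal signaling (adaptors, Src family kinases, Ras, PI3-kinase subunits, PLCγ and STATs) and the 6 negative regulators of the receptors held 0 DEGs by edgeR in senescent against control MEFs and in both doses against senescent MEFs. At an unadjusted p under 0.05 there were 6, 7 and 6 signaling genes and 2, 1 and 0 negative regulators, and DESeq2 called 0, 1 and 1 of the former and 0 of the latter. With FV 100 relative to senescent MEFs 3 signaling genes, named after their values were seen, passed the limit on p alone, against 4.02% of all genes, each lower by less than the fold limit. They were the adaptor gene Bcar1 (−0.84, adjusted p = 0.0176) and the kinase genes Src (−0.74, adjusted p = 0.0196) and Fyn (−0.67, adjusted p = 0.0287, and 0.0538 with the mouse number as a block). The medians of the signaling list were −0.05, 0.03 and 0.07. Those of the negative regulators, which are the Cbl ubiquitin ligases and phosphatases, were −0.42, −0.17 and −0.16, with 5, 5 and 4 of 6 genes lower.

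Of 12 genes that PDGF is known to induce in fibroblasts, Odc1, Myc and Fosl1 were called and all of these fell. Odc1, the ornithine decarboxylase of polyamine synthesis, was at 394, 386 and 331 CPM in control mice 4, 5 and 6 and at 150, 191 and 180 CPM in senescent mice. It fell by 1.09 on the log2 scale (SE 0.21, adjusted p = 0.00504). The transcription factor gene Myc was at 57.1, 68.7 and 75.7 CPM in senescent mice, at 27.9, 27.9 and 30.5 CPM with FV 100 and at 37.9, 29.7 and 31.8 CPM with FV 300. It fell by 1.22 (SE 0.20, adjusted p = 0.00765) and by 1.02 (SE 0.20, adjusted p = 0.0243). Without senescent mouse 6 both values were under the fold limit, at −0.98 and −0.88, and that of FV 300 was also not called without senescent mouse 5 or FV 300 mouse 5 or 6 (−0.99 to −0.94). Fosl1, which encodes the AP-1 subunit FRA1, was at 16.4, 13.9 and 22.4 CPM in senescent mice, at 2.88, 2.39 and 0.45 CPM with FV 100 and at 0.89, 1.53 and 1.24 CPM with FV 300. It fell by 3.20 (SE 0.56, adjusted p = 0.00859) and by 3.84 (SE 0.58, adjusted p = 0.00635). For both genes every Fucoidan-FV sample lay below every senescent sample. The list had medians of −0.45 in senescent MEFs, −0.33 with FV 100 and −0.86 with FV 300, with 8, 7 and 8 of 12 genes lower. In the same order, edgeR called 1, 2 and 2 of the 12 genes and DESeq2 called 1, 2 and 1.

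Of 7 transcription factors known at PDGF gene promoters, Klf5 was called. It was at 13.9, 8.44 and 4.32 CPM in control mice 4, 5 and 6 and at 1.92, 1.64 and 1.97 CPM in senescent mice, and fell by 2.26 on the log2 scale (SE 0.52, adjusted p = 0.0132). It was not called without control mouse 4 (adjusted p = 0.0862) or without senescent mouse 4 or 5 (adjusted p = 0.0503 and 0.0502). The factors of the CCAAT box, Nfya, Nfyb and Nfyc, were not called in the senescent against control comparison or in either dose against senescent MEFs. Relative to control MEFs, 2 of the 7 factors were lower DEGs at either dose, Klf5 and Nfyc, against 19.7% and 18% of all genes. Nfyc, named after its values were seen, had adjusted p = 0.00102 with FV 100 and 0.0044 with FV 300. With the mouse number as a block its log2 fold changes were −1.34 and −1.08. Nfya and Nfyb were not called there.

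**Figure D4:**
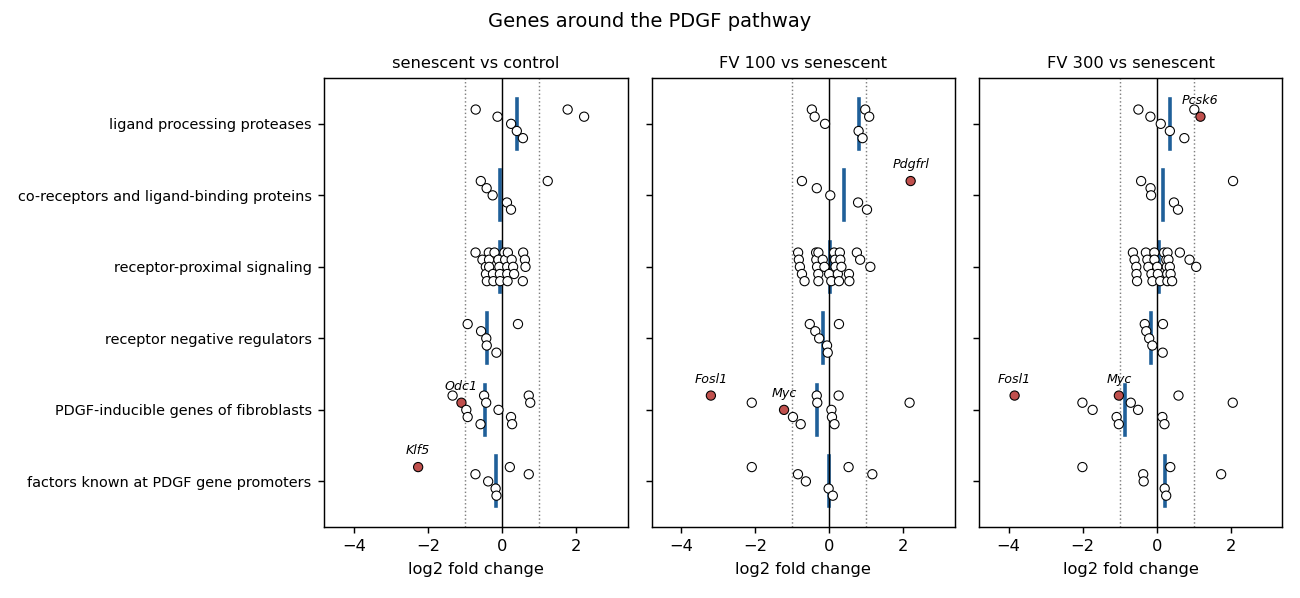
The x axes give log2 fold changes of the 65 pathway genes in 6 lists (rows, with Egr1 in both of the lowest lists) for senescent against control, FV 100 against senescent and FV 300 against senescent MEFs. Filled, named points are DEGs, blue lines are list medians and dotted lines stand at −1 and 1. Fosl1 and Myc lie left of −1 at both doses.

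The genes whose pattern was most like that of each member were ranked by Pearson's r of log2 CPM over the 12 samples, among 12645 genes with a mean of at least 1 CPM. These values are descriptions, since the samples share 4 groups and many genes differ between the groups. For Pdgfd the nearest were Trp53inp1, a p53-induced stress protein gene (r = 0.988), Acadsb, a mitochondrial acyl-CoA dehydrogenase gene (r = 0.980), and Map1a, a microtubule-associated protein gene (r = 0.979). For Pdgfrb they were Atg4a, an autophagy protease gene (r = 0.988), Armcx1 (r = 0.982) and Ppp1r3b (r = 0.982). Pdgfrb ranked 121 of 12645 for Pdgfd, with r = 0.938, the highest value between any members. For Pdgfa the nearest were Igfbp7, a secreted IGF-binding protein gene (r = 0.962), Mus81 (r = 0.949) and Cib1 (r = 0.938), and Pdgfa and Pdgfra had r = −0.793. For Pdgfc they were Rab1a, Cast and Pafah2 (r = 0.955 to 0.964), for Pdgfra Sec14l1 (r = 0.937) and Lca5 (r = 0.936), and for Pdgfb Als2cl, Sdk2 and Dennd11 (r = 0.881 to 0.965).

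RSEM's transcript length, averaged over a gene's transcripts by their estimated abundance, shows to which transcripts the reads were assigned. For Pdgfrb it stayed at 5415 bases in every sample, and for Pdgfc it ran from 3103 to 3122 bases. For Pdgfd it ran from 2363 to 2825 bases, with the lowest in control mouse 6 and the highest in senescent mouse 6, and for Pdgfa from 1367 to 1684 bases. For Pdgfra it ran from 2488 bases in senescent mouse 5 to 6688 in control mouse 6, without a separation between groups. It was 3285 bases in library 5(1) and 6040 in 5(2) of control mouse 5, so that a like span was present between libraries of 1 mouse.

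**Figure D5:**
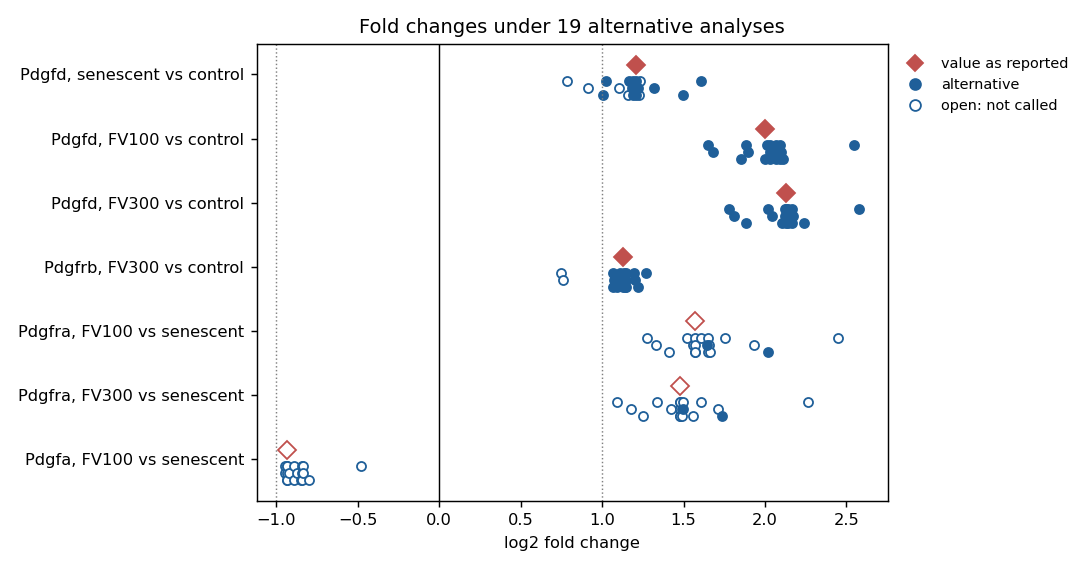
The x axis gives log2 fold changes of members (rows) as reported (red diamonds) and under 19 alternative analyses (blue circles, placed at 3 heights to keep them apart), filled where the gene was called. Pdgfd stayed called against control at both doses, whereas its change in senescent MEFs was called in 12 of 19.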

How the data were processed

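RNA was sequenced from 13 libraries of 4 groups of MEFs, at 22782505 to 31278741 counts per library. For each library the authors deposited expected counts per gene, not normalized, made with STAR 2.7.11b on GRCm39 and RSEM 1.3.1. Beside them the authors deposited TPM and FPKM values, which RSEM scaled by transcript length and library size. FPKM was not used. How the counting treated strand is not given in the sources used here.

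Expected counts were rounded, the libraries of control mouse 5 were summed, and filterByExpr (minimum count 10, total 15) kept 15034 genes. Tests were run in R 4.3.3 with edgeR 4.0.16 (quasi-likelihood, TMM, 1 fit over 4 groups), with Benjamini-Hochberg adjustment over all genes of a comparison. Intervals use the degrees of freedom of that test. DESeq2 1.42.0, other filters and scalings, gene-wise offsets, the replicate block and leaving out samples were alternatives. A further alternative used the authors' joint counts of all libraries. These equalled the counts given per library, so its result was fixed in advance. Scripts were tested on simulated data. TPM was used for shares, markers and comparisons between genes. The receptor ratio had 0.5 added to each count.

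The labels number the mice alike in every group but do not state that a number marks the same embryo or culture. Counts of mice higher or lower set same-numbered samples side by side by label only. The main edgeR fit and the permutation test did not use the pairing. The mouse number entered as a block only in alternatives. Same-numbered samples deviated from their groups with r between −0.204 and 0.425 (median −0.00627, 18 pairs, 8 over 0.1).

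The members, lists and tests were chosen with earlier results of these data known. Genes named are the members, the pathway genes called in the first 3 comparisons (at most 4 per list and comparison), the 3 nearest patterns of each member with a mean of at least 1 CPM, Cdkn1a, Cdkn2a and the highest gene of a marker list. A gene that this rule names is not reported here. Others are named in the text as chosen after their values were seen, or to spell out a list.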

Additional observations from a re-analysis of the deposited data

How the results depend on the processing

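The number of members called in senescent against control MEFs was 1, and 0 in a fit of these groups alone, with library 5(2) alone for control mouse 5 and with the replicate block. Leaving out samples gave 0 to 1. For FV 100 against senescent MEFs it was 0, and 1 without the count filter and in DESeq2 with the replicate block (Pdgfra in both), and 1 with the limit on p alone (Pdgfa). For FV 300 against senescent MEFs it was 0, and 1 without the count filter and in DESeq2 with the replicate block (Pdgfra in both). For FV 100 against control it was 1, and 2 with at least 10 counts in every sample, in DESeq2 with the replicate block and with the limit on p alone, with 1 to 2 on leaving out samples. For FV 300 against control it was 2, and 1 with the offsets, with or without the replicate block. Pdgfc changed direction for FV 300 against senescent MEFs with the offsets (−0.073, and −0.070 with the replicate block too), and on leaving out samples ran from −0.041 to 0.29. Its range was −0.031 to 0.42 in senescent against control MEFs and −0.25 to 0.15 in FV 100 against senescent MEFs. The log2 receptor ratio against control was −0.0065 for FV 300 from TPM, and leaving out samples gave −0.84 to 0.93 for FV 300 and −0.51 to 1.25 for FV 100. Of 417 alternative log2 fold changes of members, 391 kept their direction and side of the threshold. A value called neither in the main fit nor in the alternative counts as kept, so this share says little about the calls. The causes were not tested. DESeq2 with the replicate block was chosen after seeing the data. Apart from Pdgfd, Pdgfa, Pcsk5, Pdgfrl and Fyn, whose values stand beside the results, the replicate block changed no call or side of the limit on p among the members and pathway genes named in senescent against control MEFs or either dose against senescent MEFs. Over all genes, 405 were called for FV 100 and 246 for FV 300 against senescent MEFs, against 833 and 643 with DESeq2, 800 and 580 without the count filter, 776 and 464 with the offsets, 168 and 101 in fits of the groups alone, and as few as 136 and 46 on leaving out a sample. In senescent against control MEFs 1266 were called, and 699 in a fit of these groups alone. Between doses 1 was called, and 121 by DESeq2 with the replicate block. With 1 to 107 counts for Pdgfb and 44 to 742 for Pdgfra, their changes were the least precise.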
